A study of Mus musculus with 2 samples.

Results

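The genes described are 8 genes of the spermatid nucleus: the protamines Prm1 and Prm2, the transition proteins Tnp1 and Tnp2, the linker histone Hils1, the bromodomain protein Brdt, and the nuclear factors Spz1 and Tsga8. They were chosen by gene symbol in the annotation of the array, which gave 12 probe sets of 22690, and 8 genes of 12394 named by a probe set of their own. The samples were epididymal white adipose tissue, the fat pad of male mice that lies against the epididymis and testis. The wild-type pool held RNA of 5 chow-fed males aged 12 to 16 weeks, and the knockout pool RNA of 5 chow-fed males aged 12 weeks that lacked the nuclear receptor PPARb/d (gene Ppard). The strain label of the wild-type pool is 129S1/SvJae, whereas the design text describes wild-type littermates and knockout mice of a mixed Sv129/C57BL/6 background. Each pool was hybridised to 1 Affymetrix array. The comparison therefore holds 1 value per genotype, no spread between animals was measured, and no test between genotypes was possible. Genotype, strain, age, animals and dissection cannot be told apart.

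When round spermatids elongate, the histones that wrap their DNA are acetylated and removed. Transition proteins take their place, and protamines, small arginine-rich proteins, then replace these and pack the DNA of the sperm head. The genes of protamines and transition proteins are transcribed in haploid germ cells, and their mRNAs are stored before they are translated. These genes are known as genes of germ cells. In a bulk sample, fewer cells of a type and less RNA per cell cannot be told apart.

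The sequences below are the 120 bases upstream of the start site of the 4 genes whose proteins replace histones, shown because these genes had probe sets above the intensity floor in both pools and were higher together in the knockout pool. They are from the RefSeq promoter table of build GRCm38.p6, in which all 8 genes were matched, each with 1 window of 250 bases before and 50 after the start. All 4 lie on the minus strand and are written 5′ to 3′ on that strand, Prm1 at chr16:10796824-10796943, Prm2 at chr16:10792106-10792225, Tnp2 at chr16:10788656-10788775 and Tnp1 at chr1:73015900-73016019. Capitals mark matches on either strand to TGACNTCA, the palindromic cAMP response element with 1 base left free, and to TATAA, the core of the TATA box.
Prm1: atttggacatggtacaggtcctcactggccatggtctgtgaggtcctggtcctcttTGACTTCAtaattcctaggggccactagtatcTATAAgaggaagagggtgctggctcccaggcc
Prm2: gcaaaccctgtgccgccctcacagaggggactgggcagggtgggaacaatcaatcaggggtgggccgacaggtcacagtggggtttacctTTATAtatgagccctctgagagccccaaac
Tnp2: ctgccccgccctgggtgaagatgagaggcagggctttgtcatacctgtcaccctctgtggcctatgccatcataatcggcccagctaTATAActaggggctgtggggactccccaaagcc
Tnp1: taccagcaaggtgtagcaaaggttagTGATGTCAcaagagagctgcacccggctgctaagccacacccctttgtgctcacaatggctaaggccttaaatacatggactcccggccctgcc

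Over the 250 bases before the start, the cAMP response element pattern was present in 2 of the 8 genes. In Prm1 it spanned positions -64 to -57 from the start site, and in Tnp1 positions -94 to -87, where it matched on the opposite strand. Of all 32851 promoter windows, 7.49% held this pattern in the same stretch. TATAA was present in 3 of the 8 genes, from -32 to -28 in Prm1, from -33 to -29 in Tnp2 and, on the opposite strand, from -30 to -26 in Prm2, against 22.8% of all windows. The shorter site TGACG was in none of the 8 and in 17.8% of all windows. No match of one pattern overlapped a match of another. These matches describe the letters of the windows. Elements of the first kind are bound by the spermatid activator CREM, a known regulator of Prm1 and Tnp1 in mouse testis.

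All 12 probe sets were brighter in the knockout pool. Of the 6533 genes kept for comparison by the rule given below, 2902 were higher in that pool. The intensities of the 12 probe sets ran from 9.67 to 1193 in the wild-type pool, with a median of 158. In the knockout pool they ran from 61.2 to 10833, with a median of 3833. Values are intensities summarised by the authors with GCRMA, and a probe set was called measured above an intensity of 32 (log2 of 5), a floor that stands in for detection calls. Of the 12 probe sets, 8 were at or above this floor in both pools and 4 were below it in the wild-type pool. None was below it in the knockout pool. Levels of different probe sets were not compared with each other, since probes differ in their response. The sums over marker lists given below add such levels, so the brightest probe sets weigh most in them.

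**Figure D1:**
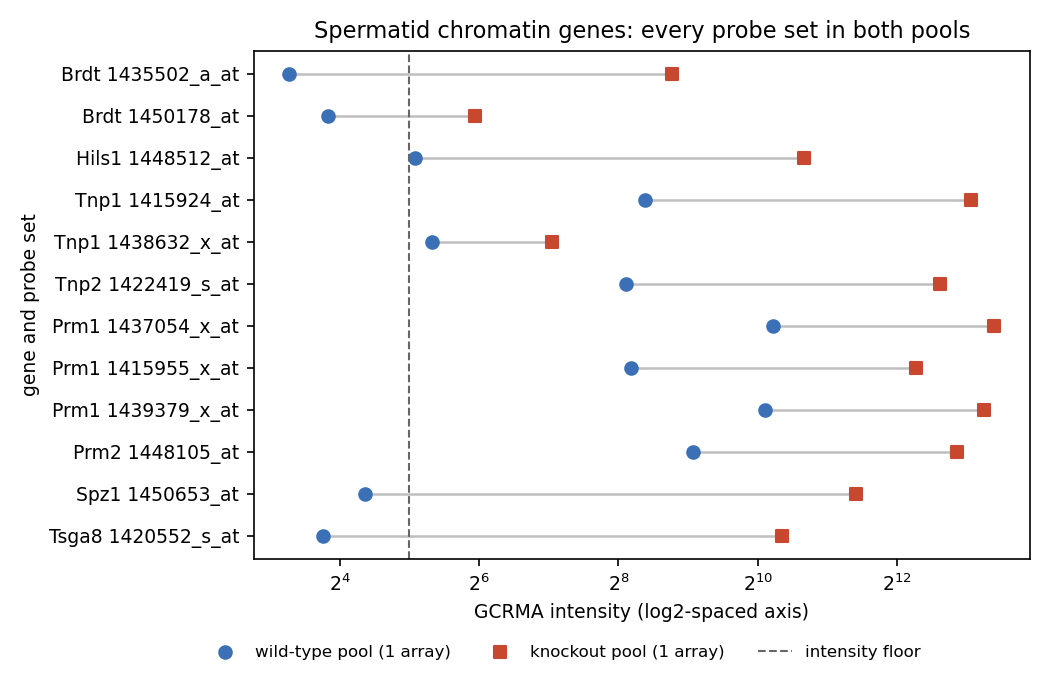
GCRMA intensity on a log2-spaced axis of the 12 probe sets of the 8 genes, with 1 point for the wild-type pool (circle) and 1 for the knockout pool (square), joined by a line; the dashed line is the intensity floor of 32. Every square lies to the right of its circle, and 4 circles, those of Brdt, Spz1 and Tsga8, lie below the floor.

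Brdt binds acetylated histones through its bromodomains and is needed for histone removal in mouse spermatids. Its probe set 1435502_a_at was at 9.67 in the wild-type pool, under the floor, and at 438 in the knockout pool, at least 13.7-fold higher with the wild-type value set to the floor. The other probe set, 1450178_at, was at 14.2, under the floor, and 61.2, a gap of at least 1.91-fold. The sets pointed the same way but differed in size, with log2 differences (knockout minus wild type) of 5.50 and 2.11 as measured.

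Hils1 is a linker histone found in the nuclei of elongating spermatids. Its single probe set read 33.9 in wild type, just above the floor, and 1628 in knockout. The difference was 48.0-fold, 5.58 on the log2 scale.

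The transition proteins were measured above the floor in both pools. For Tnp1, a small basic protein that displaces histones, probe set 1415924_at read 334 in wild type and 8535 in knockout, 25.5-fold higher. Its probe set 1438632_x_at was at 40.1 and 132, 3.28-fold higher. The log2 differences of these sets were 4.67 and 1.71, so the size of the Tnp1 difference depended on the probe set and its direction did not. For Tnp2, a zinc-binding transition protein, the single probe set was at 277 and 6285, 22.7-fold higher, a log2 difference of 4.51.

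The protamines were also above the floor in both pools and had, as measured, the smallest folds of the 8 genes at the probe sets that represent them; with dim values raised to the floor, Brdt (3.77) lay just under Prm2 (3.79) on the log2 scale. Prm1 was represented by probe set 1437054_x_at, which read 1193 in wild type and 10833 in knockout, 9.08-fold higher. Probe set 1439379_x_at gave nearly the same fold, with 1099 and 9774 (8.90-fold). Probe set 1415955_x_at was at 292 and 4935, 16.9-fold higher. The 3 sets carry a suffix that marks sequence shared with other transcripts, and their log2 differences spanned 0.93. For Prm2, made as a precursor that is trimmed on the DNA, the single probe set was at 539 and 7465, 13.9-fold higher. The log2 difference of Prm2 (3.79) lay between those of the Prm1 sets, of which 2 were close together (3.15 and 3.18) and 1 was higher (4.08).

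Spz1, a basic helix-loop-helix zipper protein of the testis, was at 20.5 in wild type, under the floor, and at 2732 in knockout, a gap of at least 85.4-fold. As measured, its log2 difference of 7.06 was the largest of the 6533 genes kept for comparison. Tsga8, an X-linked gene of haploid germ cells, was at 13.5, under the floor, and 1305, a gap of at least 40.8-fold, with rank 6 among the same genes. The ranks of the other 6 genes ran from 54 (Hils1) to 273 (Prm1). These ranks use values below the floor as measured, and values in that range have no firm order.

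**Figure D2:**
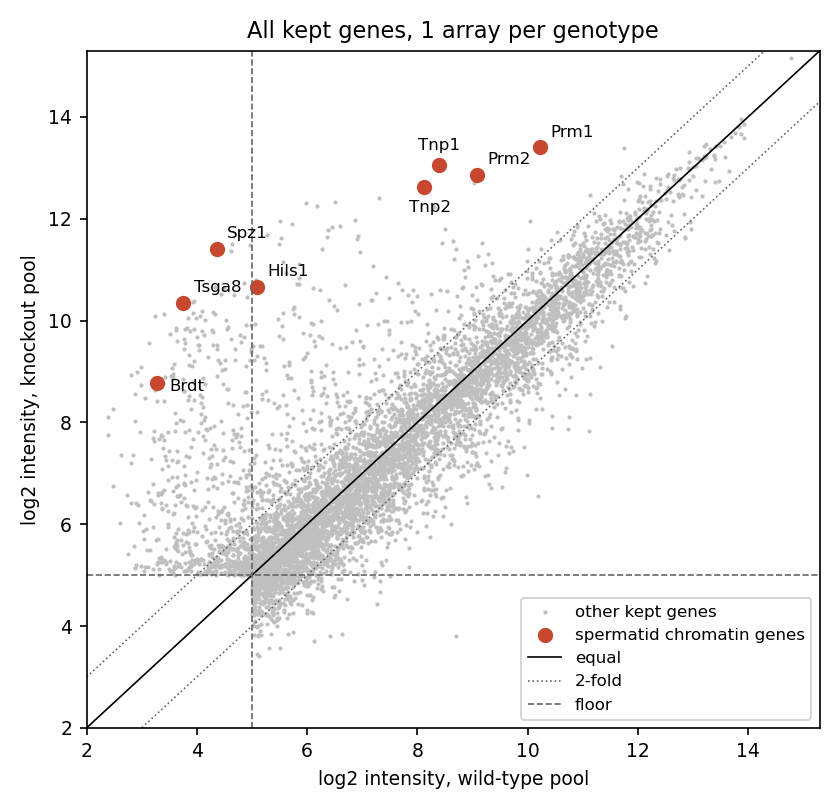
Log2 intensity in the wild-type pool (horizontal) against the knockout pool (vertical) for the 6533 kept genes, 1 array each; dashed lines mark the floor of 5, the solid line equality and dotted lines 2-fold. The 8 labelled genes all lie above the upper dotted line, with Brdt, Spz1 and Tsga8 left of the floor.

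In the knockout pool all 8 genes exceeded the wild-type value by 2-fold or more, as did 13.7% of the 6533 kept genes. None was 2-fold lower, as 9.14% of kept genes were. A gene was kept when a probe set reached the floor on at least 1 array, and Brdt, Spz1 and Tsga8 passed through the knockout array alone, so for these 3 a difference was built into the filter. The other 5 were at or above the floor on both arrays, and all 5 were at least 2-fold higher, against 7.91% of the 5452 kept genes with both values above the floor. All 8 were also at least 8-fold higher as measured, against 4.56% of kept genes. Their median log2 difference was 5.09, about 34.0-fold, and 4.59 with dim values raised to the floor; over all kept genes the median was -0.08. The genes were listed with earlier results of these arrays known, so the counts describe the list and do not test it.

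The order of the folds ran from Prm1, Prm2, Tnp2 and Tnp1 at the lower end to Brdt, Hils1, Tsga8 and Spz1 at the upper end. The 4 at the lower end are those whose proteins replace histones. They are also the 4 that read well above the floor in wild type (277 to 1193). The other 4 lay below or just above the floor there (9.67 to 33.9). A link between the order and the role of the proteins was not tested. Neighbours in this order were not separated by any replicate error, and the probe sets of a single gene differed by up to 3.39 on the log2 scale (Brdt). With dim values raised to the floor, Brdt differed by 3.77, next to Prm2 at 3.79, and the order changed.

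The genes whose log2 difference came nearest to those of the members were found among genes above the floor in both pools whose kept probe sets all pointed the same way, though not always by the same amount. Nearest to Prm1 were Cklf (52.3 and 465) and Rnf19b (50.1 and 466). Nearest to Prm2 were St6galnac2 (89.6 and 1250) and Txndc8 (38.1 and 521). Spata4 (119 and 3120) and Hspa4l (122 and 3222) were nearest to Tnp1. Nectin3 (54.3 and 1231) and Lrrc46 (32.3 and 729) were nearest to Tnp2, and Phf7 (47.0 and 2274) and Adam5 (33.5 and 1775) to Hils1. The first value of each pair is the wild-type and the other the knockout intensity. The likeness is that of 1 difference between 2 arrays.

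Prm1, Prm2, the protamine-like gene Prm3 and Tnp2 stand next to each other on chromosome 16. The 4 genes of the cluster differed by 3.18 (Prm1), 3.79 (Prm2), 4.22 (Prm3, at 34.1 and 635) and 4.51 (Tnp2) on the log2 scale. Of the 10 protein-coding genes flanking the cluster, 5 on each side, 9 had a probe set, and none of these differed by 2-fold. Litaf, which read 785 in wild type and 802 in knockout, was the only one above the floor. The other 8, among them Socs1 (2.98 and 3.04) directly beside Tnp2, were below the floor in both pools, so a difference near background would not be seen. The flanking genes were chosen by position after the values of the cluster were known.

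**Figure D3:**
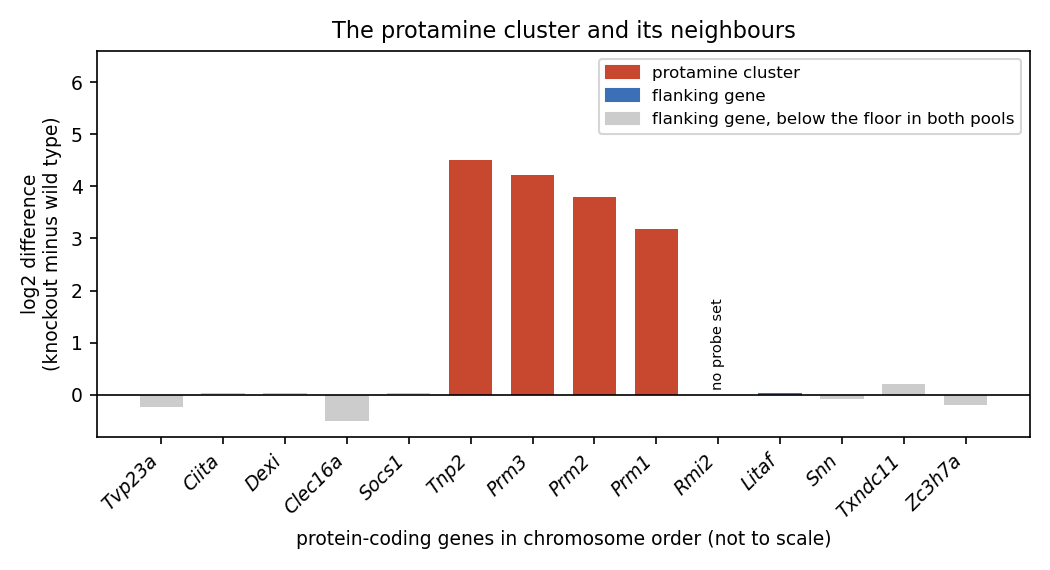
Log2 intensity difference (knockout pool minus wild-type pool, 1 array each) for the protamine cluster and the 5 protein-coding genes on each side, in chromosome order and not to scale; grey bars are genes below the floor in both pools. The 4 cluster genes stand at 3.18 to 4.51, and the flanking genes with a probe set between -0.49 and 0.21.

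Other genes of the histone-to-protamine exchange differed widely among themselves. Of 33 listed genes 19 had a probe set and 15 were kept, 4 of them through the knockout array alone. Of these 15, 9 were at least 2-fold higher (13.7% of all kept genes) and none was 2-fold lower (9.14% of all kept genes). Their median log2 difference was 1.09. Of the 11 above the floor in both pools, 5 were at least 2-fold higher, against 7.91% of such genes, and their median was 0.067. In the pairs of intensities that follow, the wild-type value comes first, and values under 32 lie below the floor. The kinase Tssk6, required for the exchange in mouse, was at 14.1, under the floor, and 926, a gap of at least 28.9-fold. The histone variant H2al2a was at 11.8 and 538, a gap of at least 16.8-fold, and H2ap, also related to histone H2A, at 13.0 and 263. The testis-enriched chaperone Hspa2, which assists transition proteins, was at 45.1 and 833, an 18.5-fold difference. Srpk1, a kinase that phosphorylates protamine, was at 24.9, under the floor, and 200.5.

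Apart from Prm3, given above with the cluster, the rest of that list differed less. Psme4, the proteasome activator that degrades acetylated histones, was at 829 and 1720, 2.07-fold higher, at the probe set that represents it. Its sets 1426823_s_at (512 and 1726) and 1426824_at (286 and 824) had larger log2 differences, of 1.75 and 1.53. Bag6 was at 463 and 983, and Kdm3a, a histone demethylase that acts on the Prm1 and Tnp1 promoters in mouse, at 164 and 396. The other 6 kept genes differed by less than 2-fold. At the lower end were Top2b, a topoisomerase, at 433 and 248, and Rnf8, a ubiquitin ligase, at 169 and 111. Cdyl, a chromodomain protein, had probe sets that disagreed. Its sets 1418070_at, at 94.6 and 89.8, and 1418071_s_at, at 38.5 and 41.9, differed little. In contrast, 1448935_at was at 15.7, under the floor, and 228. The linker histone H1f6 of spermatocytes was below the floor in both pools, at 10.5 and 9.85.

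Regulators that transcribe or store spermatid mRNAs were mixed. Of 27 kept genes 17 were at least 2-fold higher (13.7% of all kept genes) and 1 at least 2-fold lower (9.14% of all kept genes). Their median log2 difference was 2.83 as measured and 1.79 with dim values raised to the floor. Of the 27, 14 were kept through the knockout array alone. Of the 13 above the floor in both pools, 3 were at least 2-fold higher, against 7.91% of such genes, with a median of 0.38. Fhl5, the testis coactivator of CREM, was at 15.9, under the floor, and 1066, a gap of at least 33.3-fold. The RNA helicase Ddx4 was at 25.6 and 1442, a gap of at least 45.1-fold. Ybx2, which binds stored protamine mRNA, was at 15.9 and 817, and Tbpl1, a TBP-related factor, at 31.7 and 966. Crem itself was not among the higher genes: its 1 kept probe set read 54.6 in wild type and 43.9 in knockout, and its other 2 sets were below the floor in both. The Crem isoforms these sets cover are not named in the annotation used here. At the lower end Mbnl1, a splicing factor, was at 3275 and 1613, a log2 difference of -1.02, and Prkra at 133 and 96.7.

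Of the remaining spermatid genes, of the sperm tail, acrosome and metabolism, those kept were higher as well. Of 27 listed genes with a probe set 25 were kept, 14 of them through the knockout array alone. The other 2 were below the floor in both pools. All 25 were at least 8-fold higher as measured at the probe sets that represent them (background 4.56%), with a median log2 difference of 5.48. Of the 11 above the floor in both pools, all 11 were at least 2-fold higher, against 7.91% of such genes, with a median of 5.27. The 25 ran from Ldhc, the sperm lactate dehydrogenase, at 519 and 6623, to the testis glycerol kinase Gk2, at 24.6, under the floor, and 2636. With the wild-type value set to the floor, the gap was at least 5.12-fold for Acr and at least 7.90-fold for Tssk1. Probe sets of Odf2 disagreed: 1435216_a_at was at 82.3 and 3194, 1426040_a_at at 36.8 and 3257, and 1454735_at at 119 and 145. The kept sets of Cetn1 differed by 2.58 and 6.45 on the log2 scale. Some of these genes were listed with their values known from earlier work on the arrays. The difference between this list and the 8 nuclear genes was not tested.

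Markers of earlier germ cells were in part below the floor. Of 23 spermatocyte markers with a probe set 13 were kept, 11 of them through the knockout array alone, and 10 were below the floor in both pools, among them Dmc1 (17.4 and 20.9) and Rec8 (9.08 and 13.8). The 13 kept had a median log2 difference of 2.95, from Hormad1, at 22.6 and 44.5, to Adam3, at 16.6 and 1087. This median was 1.61 with dim values raised to the floor, and 1.56 over all 23 with no floor. The 13 kept summed to an intensity of 358 in wild type and 3475 in knockout, of which Adam3 gave 1087. Adam5, of the same family, stands in the list of other spermatid genes. Whether Adam3 marks spermatocytes alone was not tested. Of 13 spermatogonial markers 8 were below the floor in both pools, Stra8 (6.24 and 7.06) and Kit (31.4 and 30.5) among them. Of the 5 kept, which summed to 679 and 2985, Zbtb16 was 2.13-fold lower, at 502 and 236, and Ddx4 was the highest. Ddx4 (25.6 and 1442) and Dazl (9.33 and 199) also stand in the transcription and translation list above, so the lists are not separate. The median log2 difference of the 5 kept was 4.42, the value of Dazl, and 0.41 over all 13 with no floor.

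Most markers of somatic testis cells were below the floor. Of 14 Sertoli cell markers 8 were below the floor in both pools, including Amh (3.29 and 3.45) and Fshr (7.83 and 8.22). The 6 kept summed to 279 and 747, from Wt1 (32.2 and 31.9) to Cst9 (5.24, under the floor, and 215), with a median log2 difference of 0.93, and 0.15 with no floor. Of 7 Leydig cell markers 5 were below the floor, including Star (13.2 and 23.3). The 2 kept, which summed to 60.0 and 369, were Cyp17a1, a steroidogenic enzyme, at 44.0 and 312, and Akr1cl, at 16.0 and 57.4. Their median was 2.33, and 0.93 over the 7 with no floor.

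Nearly all epididymis and adipocyte markers were above the floor in both pools. The 13 kept epididymis markers summed to 55691 in wild type and 66827 in knockout, with a median log2 difference of 0.72; they ran from Cuzd1 (9657 and 9440) to the defensin Defb1 (123 and 366), and Pate4 was below the floor. Of the adipocyte markers, which define the labelled tissue, all 17 with a probe set were kept. Of these, 9 were at least 2-fold lower (9.14% of all kept genes) and none was 2-fold higher (13.7% of all kept genes). The 17 summed to 89906 and 58450, with a median of -1.09. Among those that differed by less than 2-fold, the fatty acid carrier Fabp4 was at 15004 and 13018. Its 4 kept probe sets ran from -1.88 to -0.10 on the log2 scale. Adipoq, the gene of adiponectin, was at 10259 and 8030. Lep, the gene of leptin, was at 1698 and 233, and Aqp7 had the highest difference, at 37.2 and 72.6, although its probe sets averaged -0.53 on the log2 scale. The part of epididymal or testicular material in the differences of the 8 genes was not tested.

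**Figure D4:**
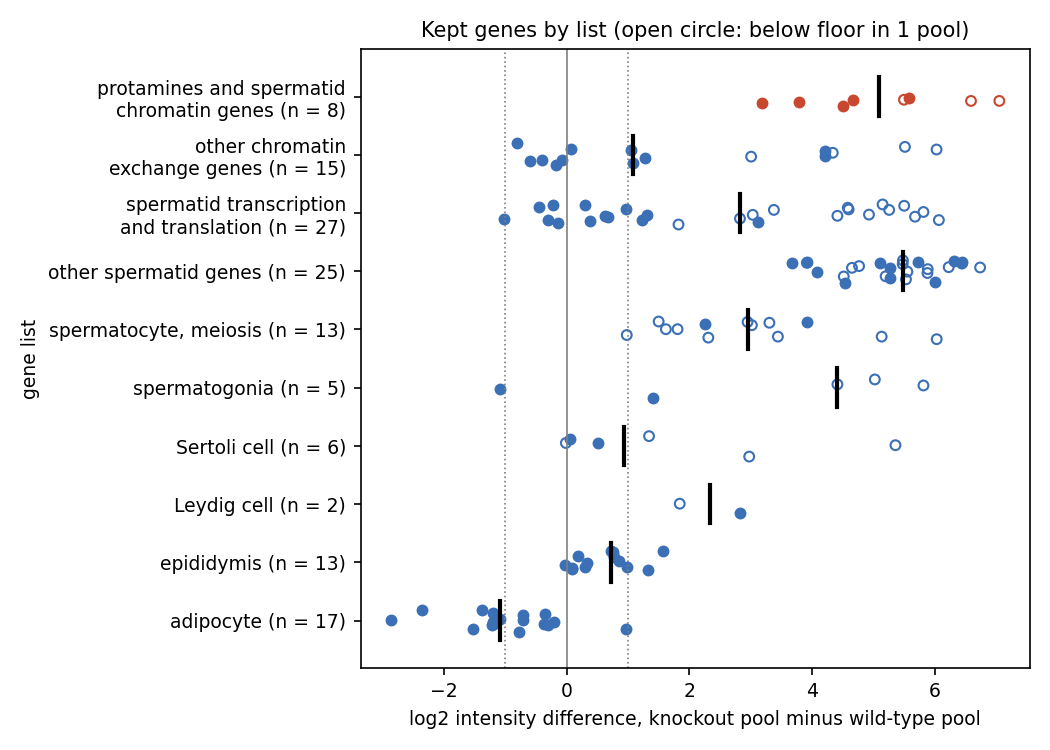
Log2 intensity difference (knockout minus wild-type pool, 1 array each) of each kept gene in 10 lists, with a black bar at the list's median; filled points are above the floor in both pools, open points below it in 1, and dotted lines mark 2-fold. The 8 nuclear genes and the other spermatid genes lie at medians of 5.09 and 5.48, the epididymis list at 0.72 and the adipocyte list at -1.09.

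The size of the differences depended on the probe set and on the treatment of dim values for some of the genes. Across 10 processing alternatives the 77 values obtained for the 8 genes were all positive and all at least 2-fold. Prm2 ranged from 3.75 to 3.93 on the log2 scale, Tnp2 from 4.43 to 4.66, and Prm1 from 3.15 to 3.47. No alternative took the highest probe set, which for Prm1 stood at 4.08. Brdt ranged from 2.11 to 5.64 and Tnp1 from 1.71 to 4.82. Ppard itself gave no check of the genotype, since its single probe set was below the floor in both pools, at 6.58 and 6.27.

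**Figure D5:**
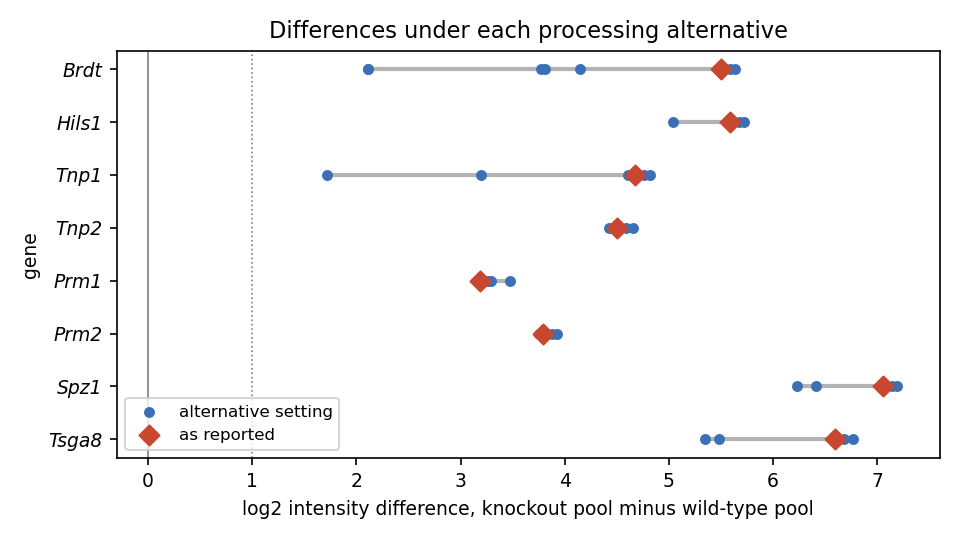
Log2 intensity difference of each of the 8 genes as reported (diamond) and under each processing alternative (points, joined by a grey line); the dotted line marks 2-fold. The ranges of Prm1, Prm2 and Tnp2 are narrow, whereas those of Brdt (2.11 to 5.64) and Tnp1 (1.71 to 4.82) are wide. Width depends on the probe sets a gene has: Prm2 and Tnp2 have 1 each, and no alternative takes the highest set.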

How the data were processed

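Each of 2 pools of total RNA, 1 per genotype, was hybridised to 1 array. The deposited values are intensities that the authors made with GCRMA 2.20, per the submitters' processing notes. They are on a linear scale, running from 1.91 to 36322, so log2 was taken first, a step the design had foreseen for linear values. GCRMA subtracts background by probe sequence and pulls dim probe sets together, which can enlarge folds near background. The set of arrays that entered the normalisation is not stated. Quartiles were 10.7 and 106 in the wild-type and 10.4 and 113 in the knockout pool. The spiked control cre (3′ set) was at 9700 and 9812, and dap at 549 and 339. The number of arrays limits the precision.

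Symbols came from the array annotation, updated by gene identifier through RefSeq records of GRCm38.p6 (20364 of 20393 probe sets naming 1 gene). Probe sets naming several genes (691) or none (1606) were left out. A probe set was kept at a log2 value of at least 5 on 1 array or more, and a gene was represented by its kept set with the highest mean, which left 6533 genes. "At least" folds set the dimmer value to the floor. Named genes are the 8 members, the ends of each list (2 at each end for the exchange and the transcription and translation lists, 1 for the others), and the 2 genes nearest in difference to each of 5 members; other named genes were chosen after their values were seen. The members and lists were chosen with earlier results of these data known. The steps were tested on simulated data, with folds put only into genes bright in the wild-type pool. The range near or below the floor, where Brdt, Hils1, Spz1 and Tsga8 lie in wild type, was not covered. Python 3.11.15, pandas 2.3.3 and statsmodels 0.14.6 were used.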

Additional observations from a re-analysis of the deposited data

How the results depend on the processing

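No paired analysis was possible because each genotype has 1 array, and no array could be left out. A value was taken as moved when it shifted by 1.5-fold or more. Of the 127 recomputed main values, 106 did not move by that much and none changed sign. Many of the 106 could not move, since changing or removing the floor for keeping genes returned each member's reported value. With the mean over the kept probe sets, log2 differences were 3.81 for Brdt, 3.19 for Tnp1, 4.16 for the median of the 8 genes and 1.60 for the transcription and translation list; with the lowest probe set they were 2.11, 1.71, 4.15 and 1.34. With dim values raised to the floor, they were 3.77 for Brdt, 6.42 for Spz1, 5.35 for Tsga8, 4.84 for the other spermatid genes and 1.79 for the transcription and translation list. With a pseudocount of 16 these 5 were 4.14, 6.23, 5.48, 4.74 and 2.10. Without probe sets of shared sequence, which removes Prm1, Tnp2 and Tsga8, 5 of the 5 genes left were at least 2-fold higher, and Brdt was at 2.11. With no floor, the median of the other exchange genes was 0.067, with more genes entering. Signal near background limits the folds of Brdt, Spz1 and Tsga8, and the cause of the disagreement between probe sets was not tested.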
